A study of Mus musculus with 5 samples.

Results

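The intercalated disc joins cardiomyocytes end to end, and 10 genes of its junctions were followed here in hearts with and without the long noncoding RNA Charme. The genes are Jup, Dsp, Pkp2, Dsg2 and Dsc2 of the desmosome, Cdh2, Ctnna3 and Ctnnb1 of the adherens junction, Gja1 of the gap junction and Tjp1 of the membrane scaffold. They were chosen by symbol, with no measured value in the rule, and make up 10 of the 49671 genes in the count table. All 10 passed the filter on low counts, as did 14880 genes in all.

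RNA came from whole hearts of C57BL6/J mice at postnatal day 2, and polyadenylated RNA was sequenced with a stranded kit. The CharmeWT group held 3 pools of 9 hearts each from wild-type mice. The CharmeKO group held 2 pools of 3 hearts each from mice whose Charme locus carries an inserted PolyA signal, an allele that is present in every cell and not only in the heart. Littermates were pooled by genotype, with sexes at random, so an effect of pool size cannot be told apart from one of genotype. Each pool averages its animals, and p-values measure the spread between 5 pools.

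A desmosome ties the intermediate filaments of neighbouring cells together: desmogleins and desmocollins are the cadherins that cross the membrane, plakoglobin and plakophilins bind their tails, and desmoplakin links that plaque to desmin. The adherens junction does the same for actin, with N-cadherin in the membrane and catenins beneath it. In the heart the junction types mix in a structure called the area composita, and mutations in the desmosomal genes are a known cause of arrhythmogenic cardiomyopathy.

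The pools held 16721055 to 21646378 counts on genes, of which the 10 disc genes took 0.259% to 0.359%. Charme itself stood at 39.3, 10.4 and 14.0 CPM (counts scaled to library size with TMM factors) in CharmeWT pools 1 to 3 and at 4.04 and 3.54 CPM in CharmeKO pools 1 and 2 (log2 fold change −2.49, SE 0.55, edgeR adjusted p = 0.0763). The CharmeKO pools also differed from each other. Mitochondrial genes took 21.1% of the counts in CharmeKO pool 1 and 9.68% to 11.1% in the other pools, while 10 salivary gland markers took 2.64% in CharmeKO pool 2, 0.0294% in CharmeKO pool 1 and at most 0.000397% in the CharmeWT pools. The 10 cardiomyocyte markers, led by Actc1 and Myl3, were abundant in every pool. Their summed level was 14387 to 19828 FPKM (counts per kilobase of exon, scaled to library size) in CharmeWT hearts. In CharmeKO hearts it was 17056 and 16308 FPKM. The quasi-likelihood test described below called none of them. DESeq2 called 1, Myh6 (edgeR log2 fold change −0.65, DESeq2 adjusted p = 0.0968), beside 8.35% of all genes. Both CharmeKO pools were below every CharmeWT pool for 2, Myh6 and Actn2, beside 18.2% of all genes. These 2 were named after their values were seen.

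Jup and Dsp are shown by sequence because they were the desmosomal genes with both CharmeKO pools below every CharmeWT pool. Jup encodes plakoglobin, an armadillo protein found in both the desmosome and the adherens junction, and lies on the minus strand at chr11:100368958-100397763 of GRCm38 in 14 exon blocks. Dsp encodes desmoplakin and lies on the plus strand at chr13:38151294-38198577 in 24 exon blocks. The 250 bases before the RefSeq transcription start of each gene (GRCm38.p6, chr11:100397791-100398040 for Jup and chr13:38151044-38151293 for Dsp) are written 5′ to 3′ along the gene, with matches to 4 motifs in capitals.
Jup promoter: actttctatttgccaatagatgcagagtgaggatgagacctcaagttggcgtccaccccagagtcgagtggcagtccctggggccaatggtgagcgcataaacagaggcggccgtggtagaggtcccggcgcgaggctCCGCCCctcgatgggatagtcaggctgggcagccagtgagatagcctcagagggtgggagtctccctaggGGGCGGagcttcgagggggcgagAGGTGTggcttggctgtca
Dsp promoter: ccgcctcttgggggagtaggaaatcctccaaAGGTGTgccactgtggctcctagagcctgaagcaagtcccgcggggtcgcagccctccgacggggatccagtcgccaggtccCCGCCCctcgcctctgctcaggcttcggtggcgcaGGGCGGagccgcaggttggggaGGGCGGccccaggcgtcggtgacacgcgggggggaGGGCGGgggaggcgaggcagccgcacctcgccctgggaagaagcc

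Both strands were searched for each motif, and no matches overlapped in these windows. The T-box core AGGTGT, which cardiac T-box factors bind, was present once in each window, with its first base at position −19 in Jup and −219 in Dsp, and 11.8% of all 32851 windows of this length held it. The GC box, spelled GGGCGG and bound by Sp factors, was present 2 times in Jup and 4 times in Dsp, where 32.7% of all windows held at least 1. Neither window held the GATA-factor motif AGATAA, which was found in 9.99% of all windows. The MCAT element of TEAD factors was absent from both as well, and its letters CATTCC were found in 12.6% of all windows. Among the other members with a window, Tjp1 had 2 GC boxes, and Ctnnb1 had 3 and 2 in its overlapping windows. In separate windows, Ctnna3 had 1 GC box, 1 MCAT match and 1 T-box core. The window of Gja1 had 1 match to the GATA-factor motif and no GC box. These matches describe the letters and not binding. Windows were given for 6 of the 10 genes, and Pkp2, Dsg2, Dsc2 and Cdh2 had none.

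The study lists a pair of primers for Jup. Of 9 annotated Jup transcripts, the forward primer matched 3 and the reverse primer 2. In the spliced transcript Jup-201 the pair amplifies 128 bases, from exon 5 into exon 6 (chr11:100380629-100381743, intron included), within the coding sequence. It is shown, with the primer sites in capitals, because it is the stretch of Jup that a PCR assay with these primers reads, and its GC content of 57.0% is near that of the whole transcript, 58.8%.
Jup amplicon: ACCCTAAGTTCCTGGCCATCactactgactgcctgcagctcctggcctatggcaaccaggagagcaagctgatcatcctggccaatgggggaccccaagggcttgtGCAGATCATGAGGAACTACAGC

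In CharmeWT hearts the 10 genes spanned 27.3-fold in level per exon length. Ctnnb1, encoding beta-catenin, was the most abundant at 124 ± 2.68 FPKM (SD, n = 3), above 97.6% of the genes tested. Dsp followed at 75.9 ± 4.98 FPKM, then Gja1 (connexin 43, the main ventricular gap junction channel) at 59.9 ± 3.73 FPKM and Jup at 53.5 ± 2.87 FPKM. Cdh2 (N-cadherin) and Pkp2 (plakophilin-2) stood at 47.1 ± 3.80 and 45.3 ± 6.19 FPKM. The lower group was formed by Tjp1 (ZO-1, a scaffold beside the gap junction) at 14.9 ± 2.84 FPKM, Dsg2 (desmoglein-2) at 10.2 ± 0.657 FPKM, Dsc2 (desmocollin-2) at 5.14 ± 0.124 FPKM and Ctnna3 (alpha-T-catenin) at 4.53 ± 0.457 FPKM. The desmosomal cadherins were therefore the scarce part of the desmosome at the RNA level, and the plaque genes the abundant part. Of the 9 pairs of neighbours in this order, 7 had ranges over the CharmeWT pools that did not overlap. The range of Gja1 overlapped that of Jup, though Gja1 was above Jup within each CharmeWT pool. The range of Cdh2 overlapped that of Pkp2.

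**Figure D1:**
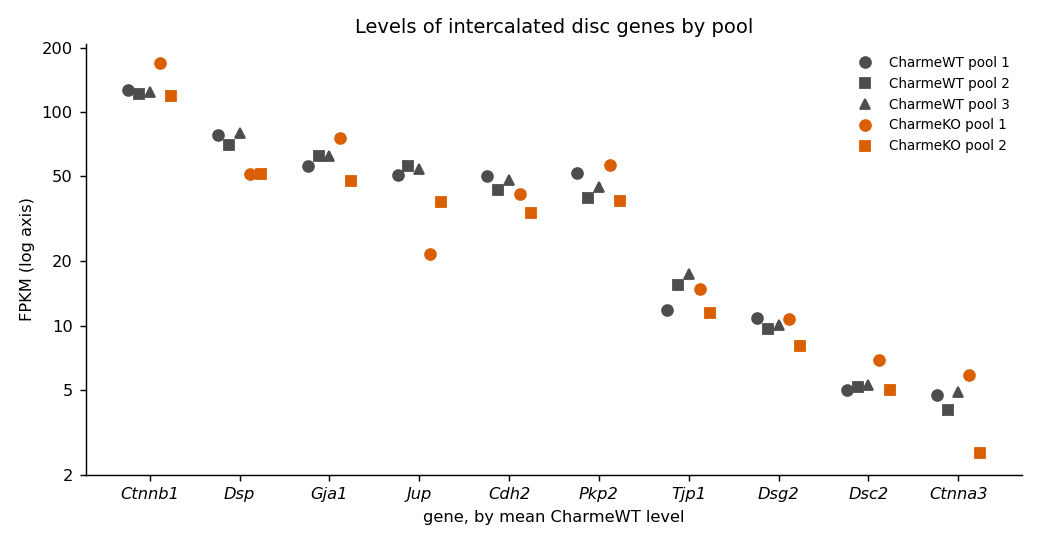
Level of each gene in FPKM (log axis) in the 3 CharmeWT pools (grey) and the 2 CharmeKO pools (orange), 1 point per pool, with genes ordered by their mean CharmeWT level. Both orange points lie below every grey point for Dsp, Jup and Cdh2.

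None of the 10 genes was called between genotypes by edgeR's quasi-likelihood test, at an adjusted p under 0.1 over all genes tested, with the mean of either genotype reaching 1 FPKM. Over all genes 2.05% were called. At an unadjusted p under 0.05 stood 2 of the 10, Jup and Dsp, beside 18.6% of all genes. Both CharmeKO pools were below every CharmeWT pool for 3 genes, Jup, Dsp and Cdh2, beside 18.2% of all genes, and both were above for none, beside 17.8%. The median log2 fold change of the 10 genes was −0.12, beside 0.02 for all genes tested. edgeR's likelihood ratio test, which the study used, called Jup alone (1 of 10, beside 6.27% of all genes), and DESeq2 called Jup and Dsp (2 of 10, beside 8.35%).

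Among the plaque genes, Jup stood at 50.4, 56.0 and 54.1 FPKM in the CharmeWT pools and at 21.6 and 38.0 FPKM in the CharmeKO pools. Both CharmeKO pools were low, and CharmeKO pool 1 was the lower at 40.4% of the CharmeWT mean, with CharmeKO pool 2 at 71.0%. The fitted log2 fold change was −0.84 (SE 0.24, 95% interval −1.38 to −0.31, edgeR adjusted p = 0.143), and the adjusted p was 0.050 with the likelihood ratio test and 0.0234 with DESeq2. The value depended on which CharmeKO pool was in the fit. Without CharmeKO pool 2, where 31.4% of all genes were called, Jup was called at −1.32 (adjusted p = 0.00155). Without CharmeKO pool 1 it stood at −0.49 (adjusted p = 0.206), where 4.05% of all genes were called.

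Dsp was the steadier of the pair. It stood at 78.1, 70.3 and 79.5 FPKM in the CharmeWT pools and at 51.5 and 51.1 FPKM in the CharmeKO pools. Both CharmeKO pools lay close together, at 67.7% and 67.2% of the CharmeWT mean. The log2 fold change was −0.57 (SE 0.19, 95% interval −0.98 to −0.15, edgeR adjusted p = 0.174), and the adjusted p was 0.118 with the likelihood ratio test and 0.0427 with DESeq2. The log2 fold change was −0.57 without CharmeKO pool 2 and −0.57 without CharmeKO pool 1.

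Pkp2, the plakophilin of the heart and the third plaque gene, stood at 51.8, 39.5 and 44.5 FPKM in the CharmeWT pools and at 56.5 and 38.3 FPKM in the CharmeKO pools. The CharmeKO pools lay on either side of the CharmeWT range. Its log2 fold change was 0.06 (95% interval −0.41 to 0.54, edgeR adjusted p = 0.890), an interval that leaves room for a change in either direction, and the sign turned when CharmeKO pool 1 was left out.

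The desmosomal cadherins showed no shared direction. Dsg2 stood at 10.9, 9.60 and 10.01 FPKM in the CharmeWT pools and at 10.7 and 8.002 FPKM in the CharmeKO pools (log2 fold change −0.12, 95% interval −0.54 to 0.30, edgeR adjusted p = 0.755). Dsc2 stood at 5.01, 5.15 and 5.25 FPKM in the CharmeWT pools and at 6.90 and 4.98 FPKM in the CharmeKO pools (0.21, 95% interval −0.25 to 0.66, edgeR adjusted p = 0.604). For both genes CharmeKO pool 2 lay below the CharmeWT pools, while CharmeKO pool 1 lay within their range for Dsg2 and above it for Dsc2.

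Summed over the 5 desmosomal genes, the level was 196, 181 and 193 FPKM in the CharmeWT pools and 147 and 140 FPKM in the CharmeKO pools. The share of each gene in that sum lay outside the CharmeWT range in CharmeKO pool 1, and for all but Jup in CharmeKO pool 2. Jup took 25.7% to 31.0% of it in the CharmeWT pools, 14.7% in CharmeKO pool 1 and 27.1% in CharmeKO pool 2. Pkp2 took 21.9% to 26.4% in the CharmeWT pools, 38.4% in CharmeKO pool 1 and 27.3% in CharmeKO pool 2. Dsp took 38.9% to 41.1% in the CharmeWT pools and 34.96% and 36.4% in the CharmeKO pools. Dsg2 took 5.17% to 5.55% in the CharmeWT pools and 7.30% and 5.70% in the CharmeKO pools. Dsc2 took 2.55% to 2.85% in the CharmeWT pools and 4.69% and 3.55% in the CharmeKO pools.

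Of the adherens junction genes, Cdh2 had both CharmeKO pools below every CharmeWT pool. It stood at 50.3, 42.9 and 48.1 FPKM in the CharmeWT pools and at 41.3 and 33.6 FPKM in the CharmeKO pools, where the higher CharmeKO pool was near the lowest CharmeWT pool. The log2 fold change was −0.33 (SE 0.19, 95% interval −0.75 to 0.08, edgeR adjusted p = 0.359), which did not pass the test.

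Ctnnb1 stood at 126, 121 and 124 FPKM in the CharmeWT pools and at 169 and 118 FPKM in the CharmeKO pools. CharmeKO pool 1 was the highest of the 5 pools and CharmeKO pool 2 the lowest. Its log2 fold change was 0.22 (95% interval −0.25 to 0.68, edgeR adjusted p = 0.590). It was 0.44 without CharmeKO pool 2 and −0.06 without CharmeKO pool 1.

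Ctnna3, whose product binds plakophilin-2 in the area composita, was the member on which the CharmeKO pools differed most. It stood at 4.70, 4.01 and 4.87 FPKM in the CharmeWT pools and at 5.86 and 2.54 FPKM in the CharmeKO pools. The levels in CharmeKO pools 1 and 2 thus differed 2.31-fold, against at most 1.21-fold among the CharmeWT pools. The log2 fold change was −0.12 (95% interval −0.80 to 0.57, edgeR adjusted p = 0.864). It was −0.83 without CharmeKO pool 1 and 0.36 without CharmeKO pool 2.

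At the gap junction, Gja1 stood at 55.6, 62.0 and 62.1 FPKM in the CharmeWT pools and at 75.5 and 47.4 FPKM in the CharmeKO pools. The CharmeKO pools lay on opposite sides of all CharmeWT pools, and the log2 fold change was 0.04 (95% interval −0.47 to 0.54, edgeR adjusted p = 0.942). Tjp1 stood at 11.8, 15.5 and 17.4 FPKM in the CharmeWT pools and at 14.8 and 11.4 FPKM in the CharmeKO pools. It was the member that varied most among CharmeWT pools, with a coefficient of variation of 19.0% against 2.16% for Ctnnb1, and its log2 fold change was −0.19 (95% interval −0.66 to 0.28, edgeR adjusted p = 0.649).

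**Figure D2:**
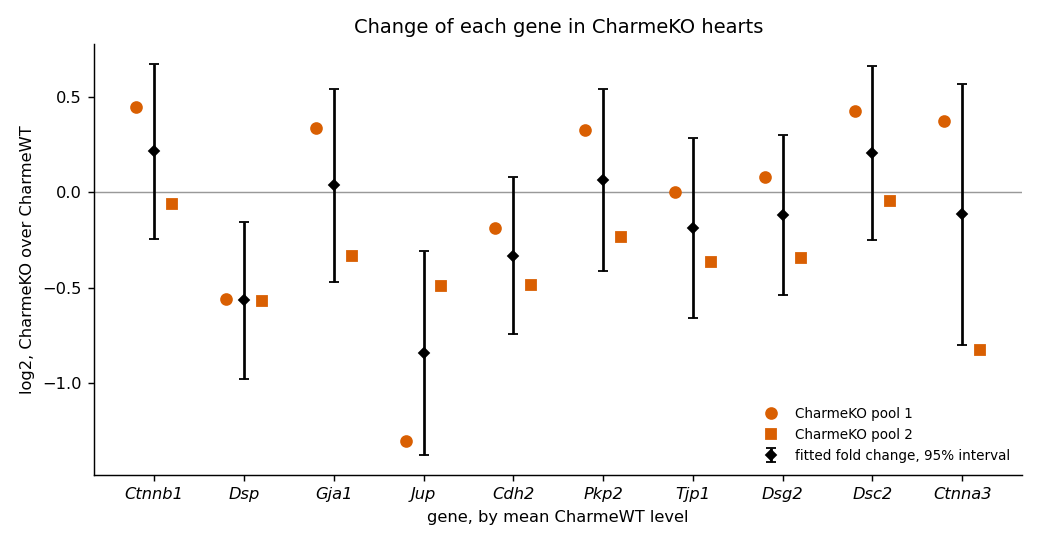
Log2 difference of each CharmeKO pool from the mean of the CharmeWT pools (orange circle for pool 1, orange square for pool 2) and the fitted log2 fold change with its 95% interval (black). The intervals of Dsp and Jup lie below 0, and pool 1 is the lower CharmeKO pool only for Jup.

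The CharmeKO pools differed from each other across the list. In CharmeKO pool 1 the median log2 difference of the 10 genes from the CharmeWT mean was 0.20, and in CharmeKO pool 2 it was −0.35. Of the 10 genes, 9 were higher in CharmeKO pool 1 than in CharmeKO pool 2, with Jup the exception and Dsp nearly equal. The summed level was 426 to 450 FPKM in the CharmeWT pools, 453 FPKM in CharmeKO pool 1 and 354 FPKM in CharmeKO pool 2.

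The members were also set against their GC content. Jup was the most GC-rich member at 58.8%, a value that placed it at the 94.8th percentile of annotated genes, and Dsp was next at 51.8%. Gja1 and Dsc2 were the most AT-rich at 42.2% and 42.5%. The order was not strict, since Ctnnb1 at 50.3% had the highest value in CharmeKO pool 1. Over the 10 members, Spearman's rho between GC content and the log2 difference from the CharmeWT mean was −0.54 in CharmeKO pool 1 and −0.27 in CharmeKO pool 2. Over 14852 genes tested, rho was −0.53 and −0.06. These correlations are across genes of a single library, which are not independent, and are given as a description.

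When the trend on gene length and GC content was fitted over all genes in each pool and taken out, the log2 difference of Jup from the CharmeWT mean moved from −1.31 to −0.67 in CharmeKO pool 1 and from −0.49 to −0.38 in CharmeKO pool 2. For Dsp it moved from −0.56 to −0.25 and from −0.57 to −0.41. Jup and Dsp kept both CharmeKO pools below every CharmeWT pool, and Cdh2 did not. With that correction in the fit, the log2 fold change was −0.51 for Jup (edgeR adjusted p = 0.141) and −0.33 for Dsp (adjusted p = 0.35). How much of the lower Jup and Dsp counts belongs to this trend and how much to the genotype was not tested.

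**Figure D3:**
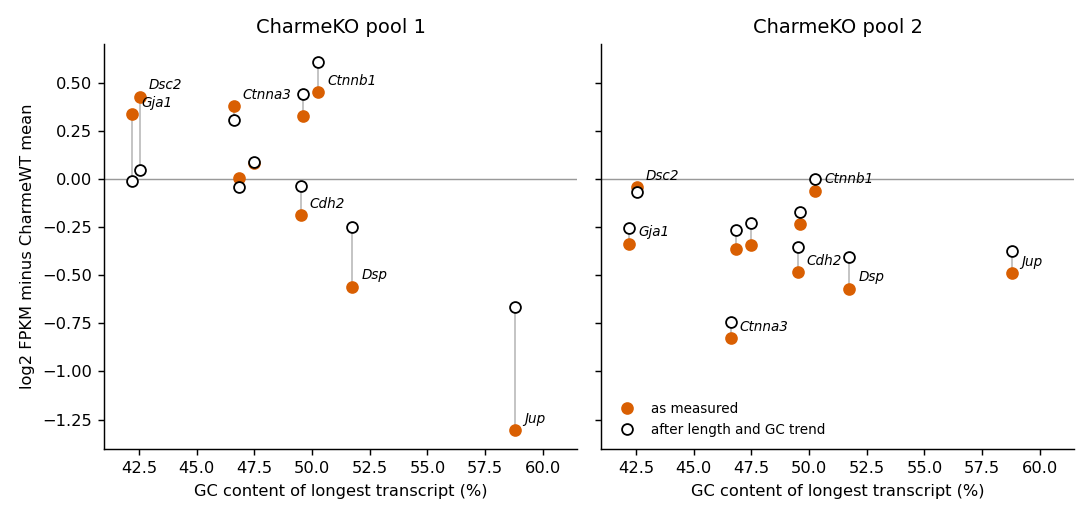
Log2 FPKM of each gene minus its CharmeWT mean against the GC content of its longest transcript, in CharmeKO pool 1 (left) and CharmeKO pool 2 (right), as measured (orange) and after the pool's trend on length and GC content was taken out (open circles). In pool 1 Jup moves from −1.31 to −0.67 and in pool 2 from −0.49 to −0.38.

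In whole hearts, fewer cardiomyocytes and less RNA per cardiomyocyte cannot be told apart. Per 1000 FPKM of the summed cardiomyocyte markers, Jup stood at 3.12, 2.83 and 3.76 FPKM in the CharmeWT pools and at 1.27 and 2.33 FPKM in the CharmeKO pools. Dsp stood at 4.84, 3.54 and 5.53 FPKM and at 3.02 and 3.13 FPKM. Both genes kept both CharmeKO pools below every CharmeWT pool on this scale. Cdh2 overlapped through CharmeWT pool 2, at 3.12, 2.17 and 3.34 FPKM against 2.42 and 2.06 FPKM in the CharmeKO pools. Actc1 was the largest part of the marker sum. It stood at 5600, 9480 and 5547 FPKM in the CharmeWT pools and at 7801 and 8181 FPKM in the CharmeKO pools. With the libraries scaled on these markers, which moved the median log2 fold change of all genes by 0.10, the log2 fold change was −0.70 for Jup and −0.47 for Dsp (edgeR adjusted p = 0.294 and 0.293).

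Epithelia also build desmosomes, and epithelial RNA was unequal between pools. The 11 epithelial markers, led by Krt18 and Krt8, summed to 4.83 to 8.95 FPKM in the CharmeWT pools, 16.6 FPKM in CharmeKO pool 1 and 295 FPKM in CharmeKO pool 2. Cdh1, the epithelial cadherin, had 6, 1 and 2 counts in the CharmeWT pools and 6 and 707 counts in the CharmeKO pools. The sum of the 10 salivary gland markers, led by Bpifa2 and Smgc, was at most 1.20 FPKM in the CharmeWT pools, 155 FPKM in CharmeKO pool 1 and 11552 FPKM in CharmeKO pool 2. The fit was repeated with the mitochondrial, salivary, epithelial and erythroid genes left out, also from the library sizes. It gave −0.84 for Jup (edgeR adjusted p = 0.132) and −0.57 for Dsp (adjusted p = 0.158). That step leaves in any Jup and Dsp counts from epithelial cells, whose share was not tested.

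Ratios between partner genes cancel the library size of a pool, and 4 were compared with a two-sided exact permutation test over the 10 assignments of the pools, whose smallest p is 0.1. The Jup to Ctnnb1 ratio, between the 2 armadillo proteins that can bind the N-cadherin tail, was 0.399, 0.464 and 0.437 in the CharmeWT pools and 0.128 and 0.321 in the CharmeKO pools. The difference was −1.09 on the log2 scale (exact permutation p = 0.1, adjusted over the 4 ratios 0.133), and it was −0.43 without CharmeKO pool 1 and −1.75 without CharmeKO pool 2. The Dsp to Cdh2 ratio was 1.55, 1.64 and 1.65 in the CharmeWT pools and 1.25 and 1.52 in the CharmeKO pools, a log2 difference of −0.23 (exact permutation p = 0.1, adjusted 0.133). That difference was −0.087 without CharmeKO pool 1, −0.37 without CharmeKO pool 2 and −0.13 after the length and GC correction.

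The Dsg2 to Dsc2 ratio compares the cadherins that pair across the desmosome, encoded 499 kb apart on opposite strands of chromosome 18. It was 2.18, 1.87 and 1.91 in the CharmeWT pools and 1.56 and 1.61 in the CharmeKO pools, a log2 difference of −0.32 (exact permutation p = 0.1, adjusted 0.133). After the length and GC correction the difference was −0.061. The Gja1 to Tjp1 ratio overlapped between genotypes, at 4.69, 4.01 and 3.56 in the CharmeWT pools and 5.11 and 4.15 in the CharmeKO pools (log2 difference 0.18, or 0.023 after the correction, exact permutation p = 0.400, adjusted 0.400). The first 3 ratios separated the genotypes completely, which is the most that 3 pools against 2 can show. Of single genes, 18.2% had both CharmeKO pools below every CharmeWT pool and 17.8% above, and the share over other ratios was not counted. With a smallest p of 0.1, no ratio could reach an adjusted p under 0.1.

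**Figure D4:**
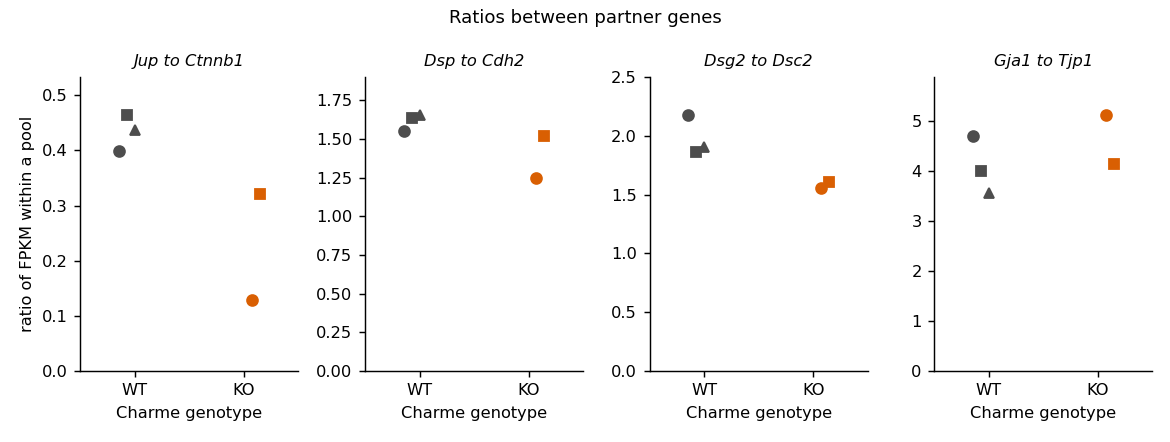
Ratio of the FPKM values of partner genes within each pool (vertical axes start at 0), for CharmeWT pools 1 to 3 (grey circle, square, triangle) and CharmeKO pools 1 and 2 (orange circle, square). The genotypes do not overlap for the first 3 ratios and overlap for Gja1 to Tjp1.

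A further 44 genes of the disc or of its junction families were listed by role and are called the other disc genes. Among them were 12 desmosomal genes, mostly of epithelia, of which 3 could be tested. Of all 44 genes, 34 could be tested. Neither the quasi-likelihood nor the likelihood ratio test of edgeR called any, 2 had an unadjusted p under 0.05 (Ppl and Arvcf, beside 18.6% of all genes), and DESeq2 called 1 (Arvcf, beside 8.35%). The log2 fold change was below 0 for 23 of the 34, beside 48.2% of all genes, and the median was −0.10. Both CharmeKO pools were below every CharmeWT pool for 9 genes, beside 18.2% of all genes, and above for 2 (Ppl and Synm), beside 17.8%.

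The 10 tested genes of the adherens junction and area composita had log2 fold changes with a median of −0.08, and both CharmeKO pools were below every CharmeWT pool for 4 of them, beside 18.2% of all genes. The most abundant were Ctnna1 (alpha-E-catenin, which links the cadherin complex to actin) and Xirp1 (Xin, an actin-binding disc protein). Ctnna1 stood at 104, 118 and 105 FPKM in the CharmeWT pools and at 94.1 and 93.5 FPKM in the CharmeKO pools (log2 fold change −0.21, SE 0.18). Xirp1 stood at 64.4, 62.9 and 61.2 FPKM and at 41.4 and 58.8 FPKM (−0.33, SE 0.20). Arvcf, a p120-catenin relative named after its values were seen, stood at 11.96, 12.3 and 12.1 FPKM in the CharmeWT pools and at 8.07 and 8.70 FPKM in the CharmeKO pools (−0.53, SE 0.17, edgeR adjusted p = 0.165, DESeq2 adjusted p = 0.0831).

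The 7 linker genes, which tie the disc to myofibrils, filaments or the membrane, showed a median of −0.13 in log2 fold change. Des (desmin, the muscle intermediate filament that desmoplakin anchors) stood at 341, 305 and 287 FPKM in the CharmeWT pools and at 266 and 293 FPKM in the CharmeKO pools, which overlapped (−0.15, SE 0.20). Nrap, which joins the last thin filaments to the membrane, stood at 67.4, 77.1 and 70.3 FPKM and at 57.9 and 63.1 FPKM (−0.24, SE 0.18).

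All 5 of the other connexins had a log2 fold change below 0, with a median of −0.25 and none called. Gja4 and Gja5 were the most abundant. Gja4, a connexin of vascular endothelium, stood at 13.7, 17.2 and 15.5 FPKM in the CharmeWT pools and at 6.52 and 19.3 FPKM in the CharmeKO pools, on either side of the CharmeWT range. Gja5 (connexin 40, of the atria and conduction system) stood at 8.61, 8.53 and 11.95 FPKM and at 7.90 and 10.1 FPKM, which overlapped (−0.11, SE 0.22).

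The 9 other membrane, scaffold and channel genes showed a median of −0.06 in log2 fold change. The most abundant were Popdc2 and Bves, which encode cyclic AMP-binding membrane proteins. Popdc2 stood at 257, 270 and 225 FPKM in the CharmeWT pools and at 201.5 and 196 FPKM in the CharmeKO pools (−0.33, SE 0.18, edgeR adjusted p = 0.354), and Bves at 39.5, 49.0 and 37.9 FPKM and at 51.2 and 41.9 FPKM (0.14, SE 0.19).

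**Figure D5:**
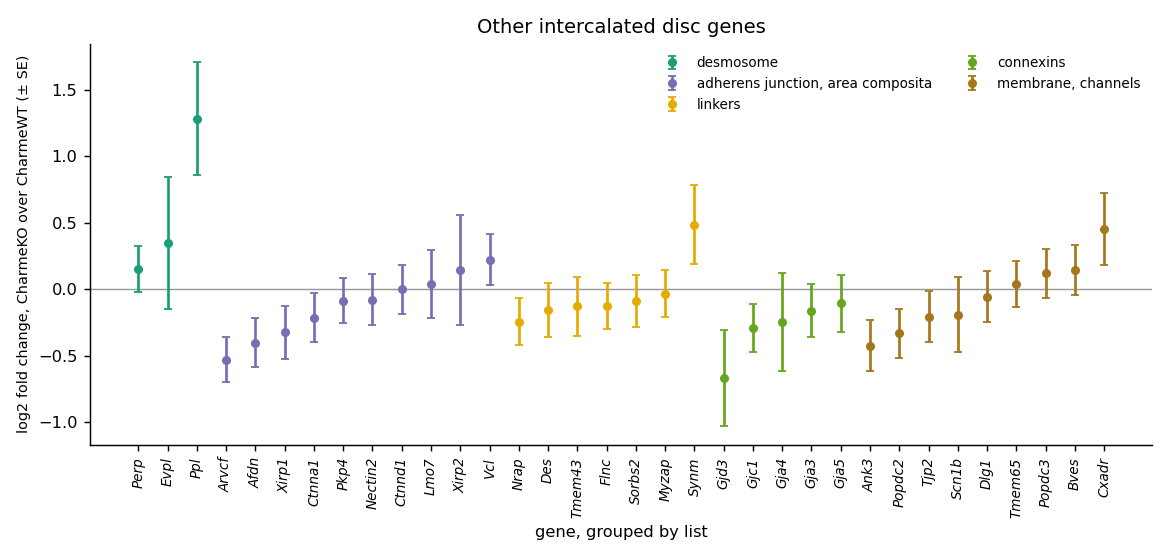
Log2 fold change of the 34 other disc genes tested, CharmeKO over CharmeWT, with the standard error (bars) and genes grouped by role (colours). Gjd3 is the lowest at −0.67 and Ppl the highest at 1.28, and no gene was called.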

How the data were processed

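Polyadenylated RNA of 5 heart pools was sequenced with a stranded kit. The authors trimmed reads with Cutadapt and Trimmomatic, discarded reads shorter than 35 nucleotides, aligned the rest to GRCm38 (mm10 per the labels) with STAR and deposited raw reverse-strand counts per gene of Ensembl release 87; tool versions are not given in the sources used here. A deposited FPKM table was not used. FPKM values were computed from the counts, TMM factors and the exon lengths of GENCODE M21, matched for 49411 genes; 23 tested genes lacked a length and were set to 1000 bases. The counting was stranded, and Dsp, Dsg2 and Ctnnb1 share exonic bases with genes on the opposite strand, while Ctnnb1 also shares 23 with the miRNA gene Mir7090 on its own strand.

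A gene with 10 or more counts in 2 or more pools was tested with edgeR 4.0.16 (quasi-likelihood, R 4.3.3), with Benjamini-Hochberg adjustment over 14880 genes and was called below an adjusted p of 0.1 where the mean of either genotype reached 1 FPKM. The standard error is the size of the log2 fold change over the square root of F. The study used the likelihood ratio test, run here as an alternative beside DESeq2 1.42.0. GC trends used splines of 4 degrees of freedom, and the correlation with GC content over all genes used a pseudocount of 0.1 FPKM. Samples were grouped by their titles. No 2 pools agreed within sampling noise. Counts carry no molecular identifiers.

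The members, gene lists, tests and alternatives were chosen with earlier results of these data known. Named were all 10 members, the 2 most abundant genes of each other disc list and any listed gene at 0 counts throughout. The cardiomyocyte, salivary gland, epithelial and beta-catenin lists also have their 2 most abundant genes named. The remaining marker lists are given mainly as counts and sums, and their called genes are not named. Further genes, such as Cdh1, Synm, Gjd3 and the epicardial markers, were named outside this rule. Of the planned lists, 1 item is not reported here.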

Additional observations from a re-analysis of the deposited data

How the results depend on the processing

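Under the alternatives, the number of the 10 members called was 0 except with the likelihood ratio test (1), DESeq2 (2) and a pool left out (0 to 3). The length and GC correction with a CharmeKO pool left out was chosen after seeing the data. For the other disc genes the count was 0 except with DESeq2 (1), a pool left out (0 to 5, highest without CharmeKO pool 2, where 31.4% of all genes were called) and the correction without CharmeKO pool 2 (4, beside 14.1%). Whether same-numbered pools share litters is not stated. The correlation of their deviations was 0.137 for pools 1 and 0.0778 for pools 2. CharmeKO pool 1 had −0.0778 and −0.0587 with CharmeWT pools 2 and 3. CharmeKO pool 2 had −0.137 and 0.0587 with CharmeWT pools 1 and 3. The deviations of 2 CharmeKO pools mirror each other, so these values cannot decide on pairing. With the replicate block Jup was at −0.89 (adjusted p = 0.109) and no member was called.

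Jup, Dsp, Cdh2 and Tjp1 stayed below 0 throughout, from −1.32 to −0.49, −0.62 to −0.53, −0.49 to −0.20 and −0.38 to −0.022 with a pool left out. The length and GC correction turned the sign for Dsc2 (−0.011) and Gja1 (−0.13), as it did with the block (−0.015 and −0.15). Ranges that crossed 0 with a pool left out were −0.24 to 0.31 for Pkp2, −0.34 to 0.072 for Dsg2, −0.044 to 0.42 for Dsc2, −0.83 to 0.36 for Ctnna3, −0.061 to 0.44 for Ctnnb1 and −0.34 to 0.33 for Gja1. With the correction and without CharmeKO pool 1, the sign turned for Pkp2 (−0.20), Dsc2 (−0.073), Ctnnb1 (−0.014) and Gja1 (−0.26), and without CharmeKO pool 2 for Dsg2 (0.066), Ctnna3 (0.29) and Gja1 (−0.026). The causes were not tested. The 4 ratios kept their sign under each alternative but not their size. With a pool left out they ran from −1.75 to −0.43 (Jup to Ctnnb1), −0.37 to −0.087 (Dsp to Cdh2), −0.36 to −0.25 (Dsg2 to Dsc2) and 0.030 to 0.33 (Gja1 to Tjp1), and with the correction they were −0.82, −0.13, −0.061 and 0.023. The repeat of the level order on the deposited FPKM table was not run. The lowest count of a member in a pool was 410, and the number of pools limits the tests.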

Other observations

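Most desmosomal genes known from epithelia had few or no counts in these hearts. Of the 12 listed, Dsg1b, Dsg3, Dsg4 and Dsc1 had no count in any pool, and 3 could be tested. Perp, a membrane protein of desmosomes that is widely expressed, was the most abundant at 141, 134 and 122 FPKM in the CharmeWT pools and 157 and 136 FPKM in the CharmeKO pools (log2 fold change 0.15, SE 0.17). Ppl (periplakin, a plaque protein related to desmoplakin) stood at 0.5002, 0.197 and 0.345 FPKM and at 0.555 and 1.13 FPKM (1.28, SE 0.42, edgeR adjusted p = 0.178). Its adjusted p was 0.0985 with the likelihood ratio test and 0.0912 with DESeq2, where only the minimum of 1 FPKM kept it from a call. Pkp3, an epithelial plakophilin named after its values were seen, had 7, 0 and 0 counts in the CharmeWT pools and 0 and 89 counts in the CharmeKO pools, so that the high pool was the one with the highest epithelial marker sum.

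Because plakoglobin and beta-catenin share partners, 7 genes that beta-catenin signalling induces in many tissues were also read. Of these, 4 could be tested and none was called. Nkd1 stood at 2.02, 1.80 and 1.74 FPKM in the CharmeWT pools and at 0.964 and 1.51 FPKM in the CharmeKO pools (log2 fold change −0.57, SE 0.28, edgeR adjusted p = 0.315). Znrf3, the next in level, had a log2 fold change of −0.03 (SE 0.27).

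Of the other marker lists, edgeR's quasi-likelihood test called 4 of 4 adipose genes tested and 7 of 8 salivary gland genes higher. It also called higher 5 of 6 epithelial, 3 of 6 erythroid, 2 of 6 skeletal muscle and 1 of 6 smooth muscle genes. Over all genes 2.05% were called in either direction. The adipose markers summed to at most 3.06 FPKM in the CharmeWT pools, 26.8 FPKM in CharmeKO pool 1 and 533 FPKM in CharmeKO pool 2. The skeletal muscle markers summed to 5.29 to 8.06 FPKM in the CharmeWT pools and to 15.2 and 27.4 FPKM in CharmeKO pools 1 and 2. No endothelial, fibroblast, macrophage, epicardial, lung, thymus or Schwann gene was called in the quasi-likelihood test. Of these, the likelihood ratio test called Upk1b of the epicardial list (adjusted p = 0.042) and Sox10 of the Schwann list (0.0114). DESeq2 called Upk1b alone (0.0246). Both genes were named after their values were seen. Upk1b was higher in both CharmeKO pools than in every CharmeWT pool. Sox10 was higher in CharmeKO pool 2 only, the pool with the highest epithelial marker sum. In CharmeKO pool 1 its FPKM lay within the CharmeWT range. Over the 6 epicardial markers the median was 1.33 on the log2 scale. Both CharmeKO pools lay above every CharmeWT pool for 4, beside 17.8% of all genes, and below for 1, beside 18.2%. That 1 was Aldh1a2, the most abundant of the list (log2 fold change −0.38, SE 0.20), and Wt1 overlapped. The CharmeWT pools also differed, with Upk3b at 9.93, 1.40 and 3.75 FPKM. Nkx2-1, a lung and thyroid marker, had no count in any pool.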
